A study of Homo sapiens with 6 samples.

Results

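The genes described here are 10 genes of the Wnt pathway in HSC-4, a cell line from a human oral squamous cell carcinoma. They were picked by name from the Wnt pathway, with earlier results of these data known, and comprise 5 ligand genes (WNT4, WNT5A, WNT7A, WNT7B and WNT10A), 2 genes of LEF/TCF transcription factors (LEF1 and TCF7) and 3 feedback genes (AXIN2, RNF43 and ZNRF3). All 10 were found among the 58884 genes of the count files, and 9 of them had enough reads to enter the test across 15001 genes. RNA sequencing was performed on 6 libraries of this line, and the labels name no engineered allele. The 3 DAPT libraries came from cells given 50 μM DAPT, an inhibitor of γ-secretase, for 24 h. The 3 control libraries are titled control, and their column names carry the letters GM. The series text mentions normal growth medium with DAPT, whereas the methods of the study name a DMSO vehicle, so if the control cells had no DMSO an effect of DMSO and one of DAPT cannot be told apart. The labels do not say whether the 3 libraries of a group came from separate cultures, and the p-values therefore measure the spread between these libraries, which may be technical.

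Wnt proteins are secreted, lipid-modified ligands that bind Frizzled receptors with LRP5 or LRP6 as coreceptors. In the canonical branch, receptor engagement stabilizes β-catenin, which joins LEF/TCF factors on DNA and raises the transcription of target genes. AXIN2, RNF43 and ZNRF3 are among these targets in many tissues and act back on the pathway: AXIN2 is a scaffold of the complex that marks β-catenin for degradation, and RNF43 and ZNRF3 are membrane ubiquitin ligases that remove Frizzled receptors from the cell surface. γ-Secretase releases the intracellular part of Notch receptors, the step that DAPT blocks, and Notch and Wnt signals both take part in the renewal and differentiation of stratified epithelium.

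The libraries held 12276313 to 16317672 counted reads. By these totals, 3 reads, the floor used for detection, corresponded to 0.184 to 0.244 CPM, or counts per 1000000 reads. The known Notch target genes HEY1, NRARP and HES1 served as a check of the treatment. HEY1 fell from 34.6 ± 1.77 to 8.75 ± 0.796 CPM (mean ± SD, n = 3 per group, with CPM after TMM scaling), NRARP fell from 56.2 ± 6.26 to 20.7 ± 1.40 CPM and HES1 fell from 47.0 ± 4.003 to 27.5 ± 0.402 CPM. The adjusted p-values from the edgeR quasi-likelihood test were 2.03e-13, 3.23e-11 and 7.2e-08, respectively. All 8 squamous epithelial marker genes examined had reads in each group, and their summed level was 4997 to 5259 CPM in control and 2990 to 3121 CPM in DAPT libraries. KRT5, the most abundant of them, went from 2701 to 1315 CPM and 5 others were also lower. Among these 5, KRT14 had 48, 49 and 36 reads in the controls and 11, 0 and 8 with DAPT (log2 fold change -2.79). EPCAM was higher (log2 fold change 0.27, adjusted p = 0.000119) and DSG3 did not pass (-0.06). The part of these marker changes in the values below was not tested, and in bulk RNA fewer cells of a type and less RNA per cell cannot be told apart. Immune markers summed to 8.92 to 12.8 CPM, nearly all from CD14 alone, which had 8.78 to 12.8 CPM. Its log2 fold change was -0.30 (adjusted p = 0.0444), a call kept in 2 of the 6 fits that left out a library. PTPRC had 0 to 2 reads per library, CD68 had 0 to 3 and CD3E had 0. Endothelial markers summed to 0.994 to 1.68 CPM in control and 2.41 to 2.92 CPM in DAPT libraries. Of the latter, CDH5 had 2 to 7 reads in the controls and 19 to 36 with DAPT (log2 fold change 2.42, adjusted p = 4.93e-05) and PECAM1 had 0 or 1 read in every library, and the part of this signal in the values below was not tested.

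Control replicate 1 stood apart from the other 5 libraries. It held 61 genes with at least 30 reads and at least 5 times the CPM of every other library, whereas the other libraries held 0 or 1 such gene each. Among the 61 were WNT5A and 5 of 6 fibroblast marker genes. The summed fibroblast marker level was 552.5 CPM in control replicate 1 and 49.95 to 58.28 CPM in the other libraries. In the latter it was nearly all COL1A1, which had 48.3 to 54.0 CPM there and 273.5 CPM in control replicate 1. COL1A2, a chain of type I collagen, had 3452 reads in control replicate 1 and 3 to 28 reads elsewhere, and DCN, a matrix proteoglycan, had 329 reads against 0 to 2. Results that rest on this library are therefore given with and without it.

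**Figure D1:**
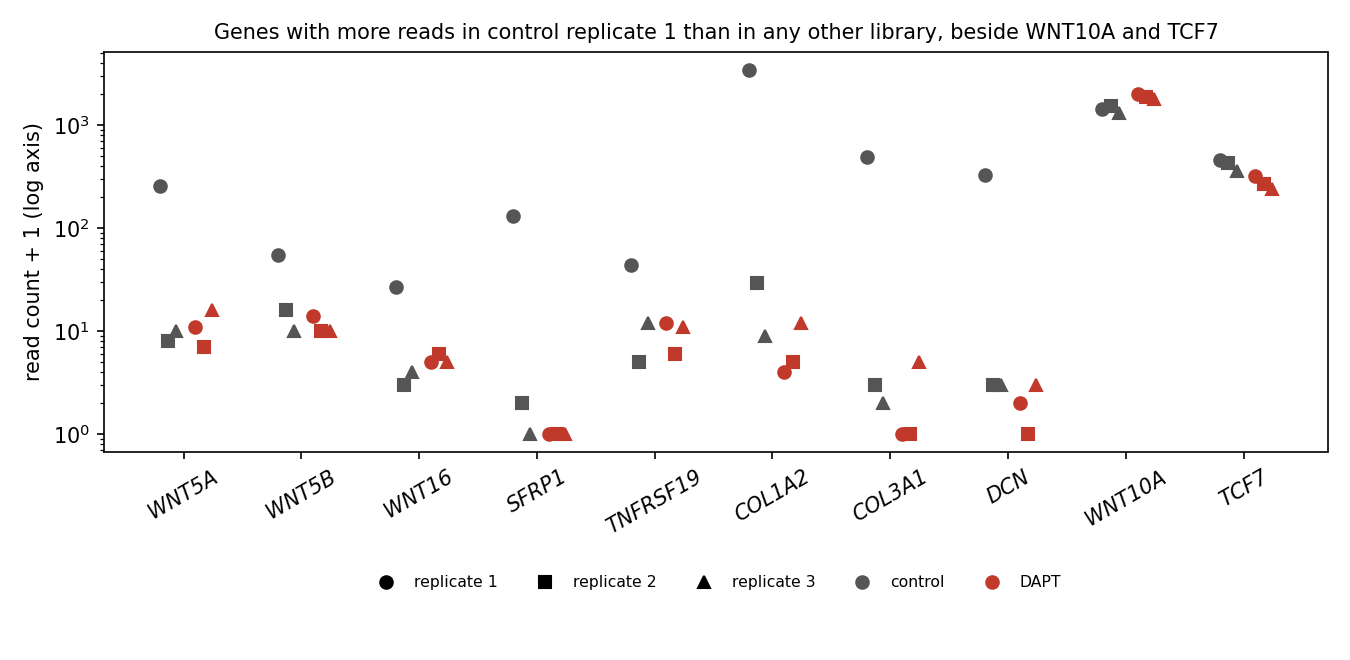
Read counts plus 1 (y axis, log scale) of genes high in control replicate 1, beside WNT10A and TCF7, with a point for each of the 6 libraries. WNT5A had 254 reads in control replicate 1 and 6 to 15 reads in the other libraries, while the points of WNT10A and TCF7 from that library lie among or near those of the other controls.

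Across the 9 tested genes, 4 passed the threshold of an adjusted p below 0.05 (Benjamini-Hochberg adjustment over 15001 genes). WNT10A, WNT7B and RNF43 were higher and TCF7 was lower in DAPT cells. The changes were small, and 0 of the 4 reached a 2-fold change, against 2.37% of all tested genes. Over all tested genes 35.2% passed the same threshold, 17.2% higher and 18.0% lower, so 4 of 9 was read against that share, and the median log2 fold change was 0.08 for the 9 genes and 0.01 for all genes. The groups did not overlap for 4 of the 9 genes, the same 4, against 46.3% of all tested genes. Without control replicate 1, 8 genes were tested and 2 passed, WNT10A higher and TCF7 lower, with 37.1% of all genes passing.

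**Figure D2:**
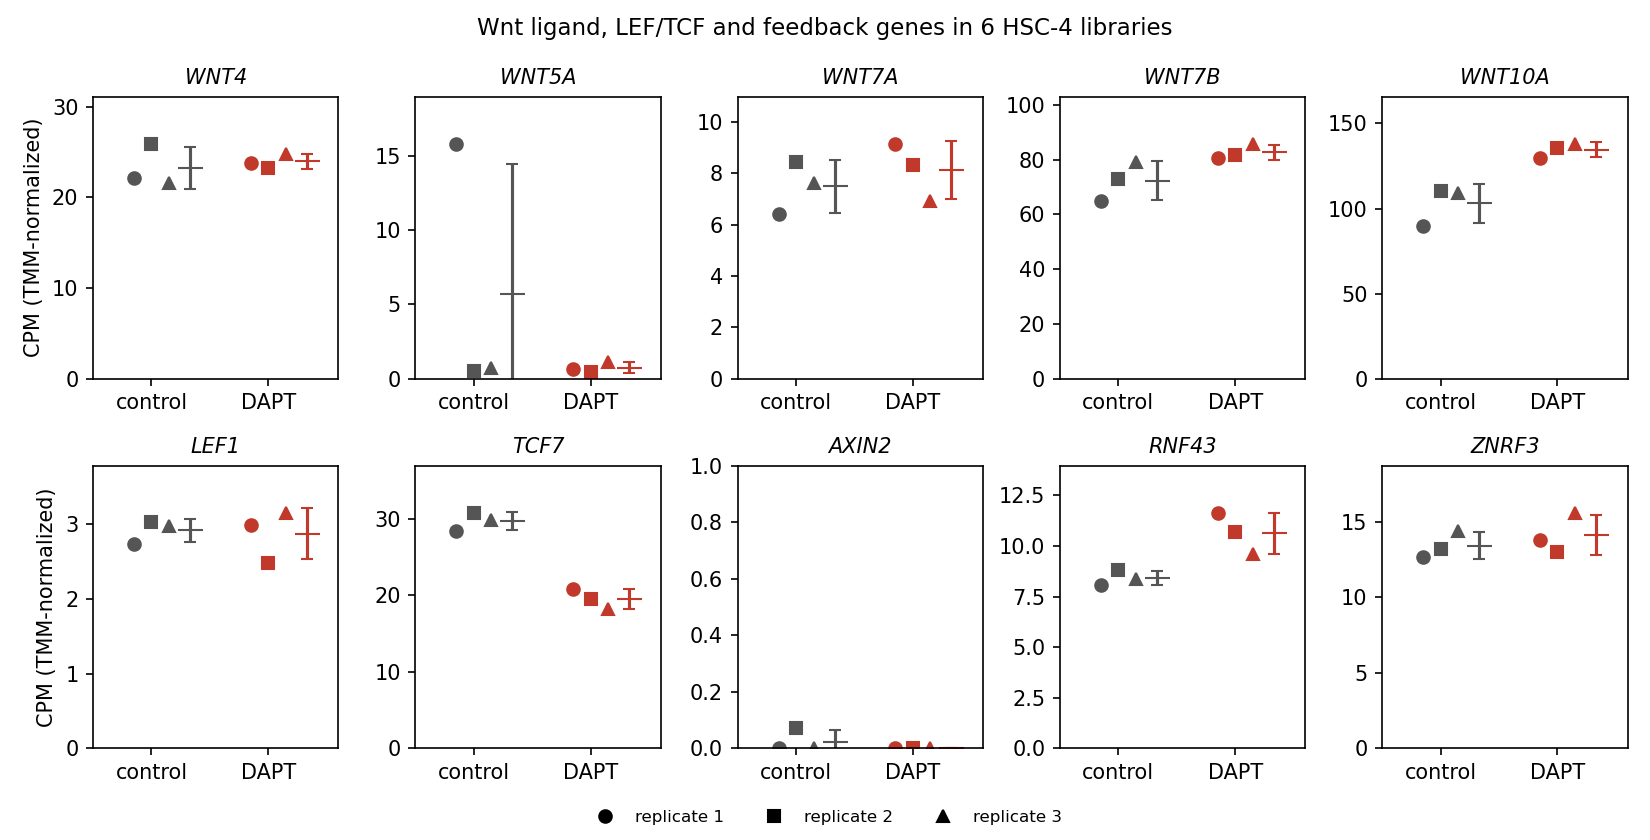
TMM-normalized CPM (y axis, a separate linear scale for each gene) of the 10 genes in the 3 control and 3 DAPT libraries, with a point per library and, beside the points, the mean with its SD. The control and DAPT points are separate for WNT7B, WNT10A, TCF7 and RNF43 and overlap for WNT4, WNT5A, WNT7A, LEF1 and ZNRF3. The control mean of WNT5A is the higher one through the 15.8 CPM of control replicate 1.

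WNT10A, a ligand gene of epithelium and its appendages, was the most abundant of the ligand genes and rose with DAPT. Its levels were 89.6, 110.1 and 109.4 CPM in control replicates 1, 2 and 3 and 129.6, 135.6 and 138.2 CPM in the DAPT libraries. Every DAPT library lay above every control library, and control replicate 1 was the lowest of the 6. The mean went from 103.1 ± 11.6 to 134.5 ± 4.38 CPM, a log2 fold change of 0.39 (SE 0.07, 95% interval 0.25 to 0.53, adjusted p = 0.000218) or 1.31-fold. The gene passed in all 14 alternative fits, which gave adjusted p-values of 5.44e-10 to 0.00233, and without control replicate 1 the log2 fold change was 0.29 (0.19 to 0.40, adjusted p = 4.61e-05).

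WNT7B, a ligand that acts in epithelial and vascular development, rose by less. Its reads gave 65.0, 72.7 and 79.2 CPM in the controls and 80.5, 81.8 and 85.8 CPM with DAPT. The highest control was just below the lowest DAPT library. The mean changed from 72.3 to 82.7 CPM with SDs of 7.125 and 2.762, and the log2 fold change was 0.20 (SE 0.06, interval 0.06 to 0.33, adjusted p = 0.0206). Without control replicate 1 it was 0.13 (0.01 to 0.24) with an adjusted p of 0.0844, and the call was also lost without DAPT replicate 2 (adjusted p = 0.0551) and without DAPT replicate 3 (adjusted p = 0.0975). Over its 14 alternative fits the adjusted p ran from 0.0043 to 0.0975.

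WNT7A, the close paralog of WNT7B, was far less abundant and did not pass. The controls had 6.41, 8.45 and 7.62 CPM and the DAPT libraries had 9.16, 8.34 and 6.91 CPM, so the groups overlapped. The log2 fold change was 0.13 (interval -0.16 to 0.42, adjusted p = 0.492). The intervals of WNT7A and WNT7B overlapped, and the difference between the changes of the paralogs was not tested.

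WNT4, a ligand of epithelial and reproductive tract development, was at 22.2, 25.9 and 21.6 CPM in the controls and at 23.8, 23.25 and 24.8 CPM with DAPT. All 3 DAPT values lay within the range of the controls. The log2 fold change was 0.04 with an interval of -0.13 to 0.22 (adjusted p = 0.72). This interval lies well under a 2-fold change, but it reflects only the spread between these libraries.

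WNT5A encodes a ligand best known for β-catenin-independent signalling and is made by many stromal cells. It had 254, 7 and 9 reads in control replicates 1, 2 and 3 and 10, 6 and 15 reads in the DAPT libraries. A single library thus held most of its reads, and it was the library with the high fibroblast markers. The part of those markers' source in the WNT5A reads was not tested. The log2 fold change of -3.03 had an interval of -8.04 to 1.99 and an adjusted p of 0.29, and adjusted p-values over 11 alternative fits ran from 0.0202, without robust estimation, to 0.48. Without control replicate 1 the gene had too few reads to be tested, with a mean of 0.626 CPM in the other 2 controls and 0.747 CPM in the DAPT libraries.

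**Figure D3:**
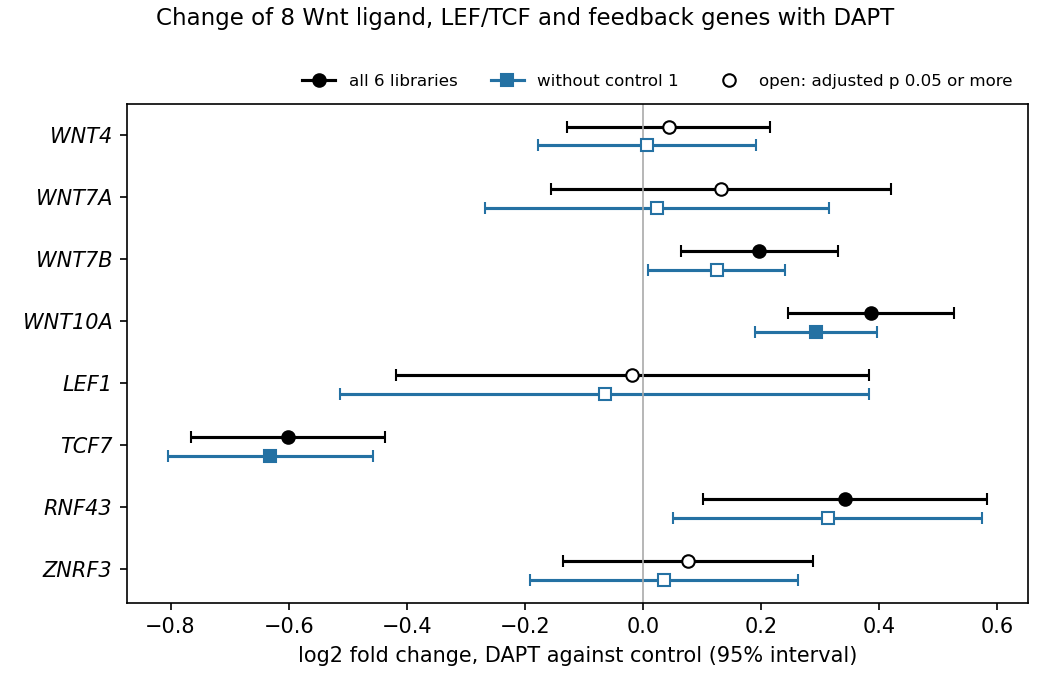
Log2 fold change of DAPT against control (x axis) with its 95% interval for 8 of the 9 tested genes, from all 6 libraries and from the 5 without control replicate 1. WNT10A lies to the right of 0 and TCF7 to the left in both fits, WNT7B and RNF43 lie to the right with intervals that come near 0, and WNT5A is left out since its interval of -8.04 to 1.99 would set the scale.

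TCF7, which encodes the LEF/TCF factor TCF1, had the largest change among the genes that passed. Its levels were 28.5, 30.8 and 29.8 CPM in the controls and 20.8, 19.5 and 18.2 CPM with DAPT. The groups were well separated and tight, with control replicate 1 close to the other controls. The mean fell from 29.7 ± 1.16 to 19.5 ± 1.29 CPM, a log2 fold change of -0.60 (SE 0.08, interval -0.77 to -0.44, adjusted p = 4.17e-06), or 1.52-fold lower. All 14 alternative fits called it, with log2 fold changes of -0.65 to -0.55, and without control replicate 1 it was -0.63 (adjusted p = 1.62e-06). Of its exonic bases 2.08% lie opposite exons of SKP1, which had 1737 to 2607 reads and a log2 fold change of -0.12 (adjusted p = 0.0759), and the part of SKP1 in the TCF7 value was not tested.

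LEF1, the other LEF/TCF gene, was close to the low end of what was tested. It had 44, 42 and 36 reads in the controls and 46, 34 and 41 reads with DAPT. The groups overlapped at 2.92 ± 0.157 and 2.88 ± 0.346 CPM. The log2 fold change was -0.02 with an interval of -0.42 to 0.38 (adjusted p = 0.953). The intervals of LEF1 and TCF7 did not overlap with all 6 libraries but did without control replicate 1 (-0.51 to 0.38 for LEF1 and -0.80 to -0.46 for TCF7), and the difference between their changes was not tested.

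Promoter windows from the RefSeq tables (build GRCh38.p14, the 250 bases before an annotated start) are shown for the ligand with the most reads and for the factor that changed most. The WNT10A window is chr2:218880602-218880851 on the plus strand and ends just before the 5′ end of the counted gene. TCF7 has windows at 2 starts, both on the plus strand and both within the counted gene. The upstream one is chr5:134115363-134115612, which lies nearer the counted 5′ end, and the downstream one is chr5:134123368-134123617. Capitals, present in the downstream TCF7 window alone among these 3, mark TGGGAA, the core of the motif of RBPJ, the DNA-binding partner of Notch.

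WNT10A: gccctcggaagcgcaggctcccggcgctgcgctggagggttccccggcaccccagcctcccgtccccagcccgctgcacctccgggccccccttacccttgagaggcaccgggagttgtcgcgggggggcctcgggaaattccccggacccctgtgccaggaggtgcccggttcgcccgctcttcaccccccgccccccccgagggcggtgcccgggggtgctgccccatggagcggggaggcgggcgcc

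TCF7, upstream start: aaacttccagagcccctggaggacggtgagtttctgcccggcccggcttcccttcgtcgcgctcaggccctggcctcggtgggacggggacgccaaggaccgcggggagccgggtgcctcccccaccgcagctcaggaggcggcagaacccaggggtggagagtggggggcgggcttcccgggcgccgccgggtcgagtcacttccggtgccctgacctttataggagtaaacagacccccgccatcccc

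TCF7, downstream start: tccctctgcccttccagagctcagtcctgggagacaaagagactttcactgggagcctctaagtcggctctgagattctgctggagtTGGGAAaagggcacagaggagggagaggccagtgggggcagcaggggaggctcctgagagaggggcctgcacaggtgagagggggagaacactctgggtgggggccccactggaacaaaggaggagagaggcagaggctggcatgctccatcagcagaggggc

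The WNT10A window has a GC content of 77.6% and 24 CG pairs, the upstream TCF7 window has 70.8% and 22 CG pairs, and the downstream TCF7 window has 62% and 1 CG pair. Windows were available for 7 of the 10 genes, 10 windows in all. Some lie in counted exons: all 250 bases of the LEF1 window and of the WNT5A window at its upstream start. The upstream windows of TCF7 and RNF43 and the WNT7A window hold 75, 61 and 50 such bases. On both strands, the TCF/LEF motif (CTTTGAA or CTTTGAT) was found in 0 of the 10 windows and in 5.94% of 35116 windows of all genes. The RBPJ motif GTGGGAA was found in 0 of the 10 and in 5.43% of all, and the HES/HEY motifs CACGTG or CACGCG in 0 of the 10 and in 15.1% of all. The shorter RBPJ core TGGGAA, which is contained in GTGGGAA, was in 3 of the 10, at 1 of the 2 starts each of WNT5A and TCF7 and at the start of LEF1, and in 20.8% of all windows. These letter matches describe the windows and are not binding sites.

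Of the feedback genes, AXIN2, often used as a general readout of β-catenin activity, was not detected above the floor. It had 0, 1 and 0 reads in the controls and 0 reads in each DAPT library. All 6 values are under the floor of 3 reads, which corresponds to at most 0.244 CPM by library total, before TMM scaling. No fold change was therefore computed, and a difference was not detectable at this depth. On the same strand, 25.2% of its exonic bases are shared with another annotated gene, where reads were not assigned to either.

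RNF43 was higher with DAPT at a low level. It had 130, 122 and 101 reads in the controls, or 8.10, 8.81 and 8.37 CPM, and 179, 146 and 125 reads with DAPT, or 11.6, 10.7 and 9.60 CPM. Each DAPT library lay above each control. The mean went from 8.42 ± 0.361 to 10.6 ± 1.01 CPM with a log2 fold change of 0.34 (SE 0.12, interval 0.10 to 0.58, adjusted p = 0.0257). The call was lost without control replicate 1 (0.0559), control replicate 3 (0.0671), DAPT replicate 1 (0.122) or DAPT replicate 2 (0.0648), and with DESeq2 (0.104), each value being an adjusted p. Of its exonic bases 59.5% are shared on the same strand with SUPT4H1 and another gene, so the counted reads come from the rest, and SUPT4H1 itself had a log2 fold change of 0.40 (adjusted p = 0.0886).

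ZNRF3, the paralog of RNF43, had 12.7, 13.2 and 14.4 CPM in the controls and 13.8, 13.02 and 15.6 CPM with DAPT. The groups overlapped. The log2 fold change was 0.08 with an interval of -0.13 to 0.29 (adjusted p = 0.595). The intervals of ZNRF3 and RNF43 overlapped, and the difference between them was not tested.

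Levels were compared between genes as TPM, or transcripts per 1000000, which takes the exonic length into account. In the controls the order by mean TPM was WNT10A (123 ± 14.0), WNT7B (49.6 ± 5.17), WNT4 (17.4 ± 1.63), TCF7, ZNRF3, WNT7A, RNF43, WNT5A, LEF1 and AXIN2. ZNRF3 (6.73 ± 0.487) and WNT7A (5.70 ± 0.765) overlapped, as did RNF43 (3.91 ± 0.153) and LEF1 (1.90 ± 0.103) with WNT5A, whose TPM ran from 0.236 to 7.44. The place of WNT5A above LEF1 rests on control replicate 1. In control replicates 2 and 3 the mean was 0.295 TPM for WNT5A and 1.96 TPM for LEF1. With DAPT, WNT10A, WNT7B and WNT4 kept the first places in the order by TPM at 172, 60.9 and 19.3. TPM was not TMM-scaled, so the TPM values of the groups do not measure a change. WNT4, for example, had a fitted log2 fold change of only 0.04. Below them ZNRF3 (7.60 ± 0.744), TCF7 (7.23 ± 0.426) and WNT7A (6.64 ± 0.882) overlapped. The place of RNF43 depends on the length used, since reads in the 59.5% of its exonic bases shared with other genes were not counted. Per unshared exonic base, a measure added after the data were seen, RNF43 was at 9.66 ± 0.378 TPM in the controls, overlapping TCF7 and above ZNRF3 and WNT7A, and at 13.1 ± 1.15 TPM with DAPT, next after WNT4.

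**Figure D4:**
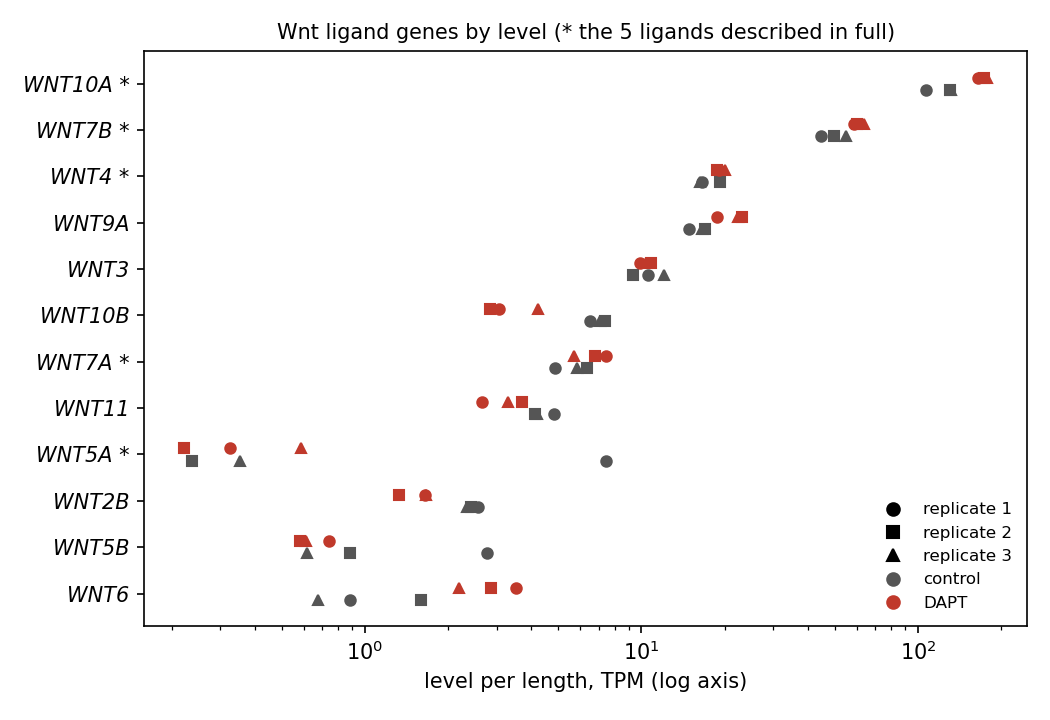
TPM (x axis, log scale) of the 12 tested Wnt ligand genes in each control and DAPT library, with the 5 ligands described in full marked by an asterisk. WNT10A and WNT7B lie at the right in all 6 libraries, and WNT5A has a single control point at 7.44 TPM far to the right of its others.

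Of the summed TPM of all 19 ligand genes, WNT10A made up 47.4%, 52.4% and 52.1% in the controls and 56.5%, 56.8% and 56.8% with DAPT. WNT7B made up 19.7% to 21.7% in the 6 libraries. The 5 ligands together held 79.9% to 82.7% in the controls and 85.0% to 85.8% with DAPT, so a pair of genes, WNT10A and WNT7B, supplied most ligand transcripts in every library. The share of WNT5A was 3.30% in control replicate 1 and at most 0.187% elsewhere.

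The other genes of the pathway were taken from a list of 92, of which 66 were tested. Among them 11 were higher and 22 were lower, 33 of 66, with a median log2 fold change of -0.09. The shares over all tested genes were 35.2% called, 17.2% higher and 18.0% lower, and the counts by role below are to be read against them. Without control replicate 1, 9 were higher and 22 lower of 67 tested, against 37.1% of all genes called. By role, that fit had 1 higher and 2 lower of 7 other ligands, and 0 higher and 5 lower of 15 receptors. It had 1 higher and 3 lower of 6 inhibitors, and 6 higher and 3 lower of 17 cytoplasmic genes. The higher and lower counts of the remaining roles were the same. The counts below are from all 6 libraries. Of the 7 other ligands tested, 2 were higher and 3 lower. WNT6, the neighbour of WNT10A on chromosome 2, was at 0.521 ± 0.243 CPM in the controls and 1.31 ± 0.313 CPM with DAPT (log2 fold change 1.33, adjusted p = 0.00844), a call lost without DAPT replicate 1 (adjusted p = 0.0546). WNT9A rose by 0.30 on the log2 scale (adjusted p = 0.0127), but not past the threshold without control replicate 1 (0.0514), DAPT replicate 2 (0.0876) or DAPT replicate 3 (0.0569). WNT10B, the paralog of WNT10A, fell from 5.21 ± 0.352 to 2.35 ± 0.504 CPM (-1.15, adjusted p = 5.24e-05), and WNT2B also fell (-0.76, adjusted p = 0.000165). Of the exonic bases of WNT2B 21.5% lie opposite ST7L, which had 360 to 543 reads and a change of 0.10, and the part of ST7L in that value was not tested. WNT11 was at -0.56 (adjusted p = 0.0435), and its adjusted p was 0.0639 to 0.171 when any library but DAPT replicate 2 was left out, 0.161 with DESeq2, 0.0932 with no filter on low counts, 0.0621 with library size alone and 0.0579 with the replicate block. WNT3 was at -0.13 (interval -0.36 to 0.09), and WNT5B at -1.30 (adjusted p = 0.103) with 54 of its reads in control replicate 1 and 9 to 15 in each other library. Without that library WNT5B was at -0.32 (adjusted p = 0.577), and its adjusted p over 13 alternative fits ran from 0.00144 to 0.577.

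Both genes of ligand secretion were lower. WLS, the carrier of lipid-modified Wnt proteins, had a log2 fold change of -0.29 (adjusted p = 0.000368) and PORCN, which attaches the lipid, one of -0.35 (adjusted p = 0.00661, and 0.0505 without control replicate 2). Of 15 receptor genes tested 4 passed, all lower, and FZD8 had a change of -0.63 (adjusted p = 0.000583). FZD4 was at -0.72 (adjusted p = 0.000993), but 18.9% of its exonic bases lie opposite PRSS23, which had 7750 to 16736 reads and a change of -0.83, and the part of PRSS23 in the FZD4 value was not tested. FZD10 was at -0.46 (adjusted p = 0.0134, and 0.0822 without control replicate 2, 0.0562 without DAPT replicate 1 and 0.0542 with DESeq2). Of 3 R-spondin and LGR genes tested, 1 passed, LGR6, a receptor of R-spondins, at -0.56 (adjusted p = 0.0197, and 0.0577 without control replicate 3, 0.0967 without DAPT replicate 2, 0.0508 without DAPT replicate 3 and 0.0769 with DESeq2). Of 6 secreted or surface inhibitors tested 1 was higher and 4 were lower, the former being DKK1, a secreted antagonist of the LRP coreceptors, which rose from 113.5 ± 7.28 to 149.8 ± 10.8 CPM (0.40, adjusted p = 2.3e-05). SOST, another LRP antagonist, fell from 4.405 ± 0.379 to 1.82 ± 0.484 CPM (-1.27, adjusted p = 5.95e-05), and KREMEN1, a receptor of DKK proteins, was lower at -0.46 (adjusted p = 2.84e-05). KREMEN2, its paralog, was at -0.79 (adjusted p = 0.000541), but 15.4% of its exonic bases lie opposite PKMYT1, which was at -0.74, and the part of PKMYT1 in that value was not tested. SFRP1, a secreted antagonist named after its values were seen, had 131 reads in control replicate 1 and 0 or 1 elsewhere.

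Of 16 cytoplasmic genes tested 7 were higher and 2 were lower, among the latter CTNNB1, which encodes β-catenin, at 287.6 ± 6.32 and 252.9 ± 7.17 CPM (-0.19, adjusted p = 0.00428). AMER1, a partner of the destruction complex, was at -0.29 (adjusted p = 0.0337, and 0.144 without control replicate 2, 0.0937 without DAPT replicate 1, 0.106 without DAPT replicate 3, 0.115 with DESeq2, 0.0706 with library size alone and 0.0533 with no filter on low counts). Among the higher genes were the casein kinase genes CSNK1A1 (0.23, adjusted p = 0.00124, with 37.4% of its exonic bases shared with another gene) and CSNK1D (0.23, adjusted p = 0.000917, with 16.8% of its exonic bases opposite other genes, among them SLC16A3, which was at -0.52) and TNKS, whose product marks Axin for degradation (0.235, adjusted p = 0.0106, and 0.0742 without control replicate 3). Of 10 nuclear partners, 1 was higher and 1 lower. TCF7L2, another gene of the family of TCF7 and LEF1, rose from 38.6 ± 0.532 to 48.0 ± 2.91 CPM (0.32, adjusted p = 0.00113), the opposite direction to TCF7, and TLE3, a corepressor of LEF/TCF factors, fell (-0.58, adjusted p = 3.7e-08). Of 7 other target or feedback genes tested, 5 passed and all 5 were lower, including MYC (-0.77, adjusted p = 2.7e-09), BAMBI (-0.72, adjusted p = 1.64e-07) and NKD1, an inhibitor of Dishevelled (-0.80, adjusted p = 0.0027). The direction of these 5 was opposite to that of RNF43. LGR5 and NOTUM, named after their values were seen, had 0 to 2 reads per library, as low as AXIN2.

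**Figure D5:**
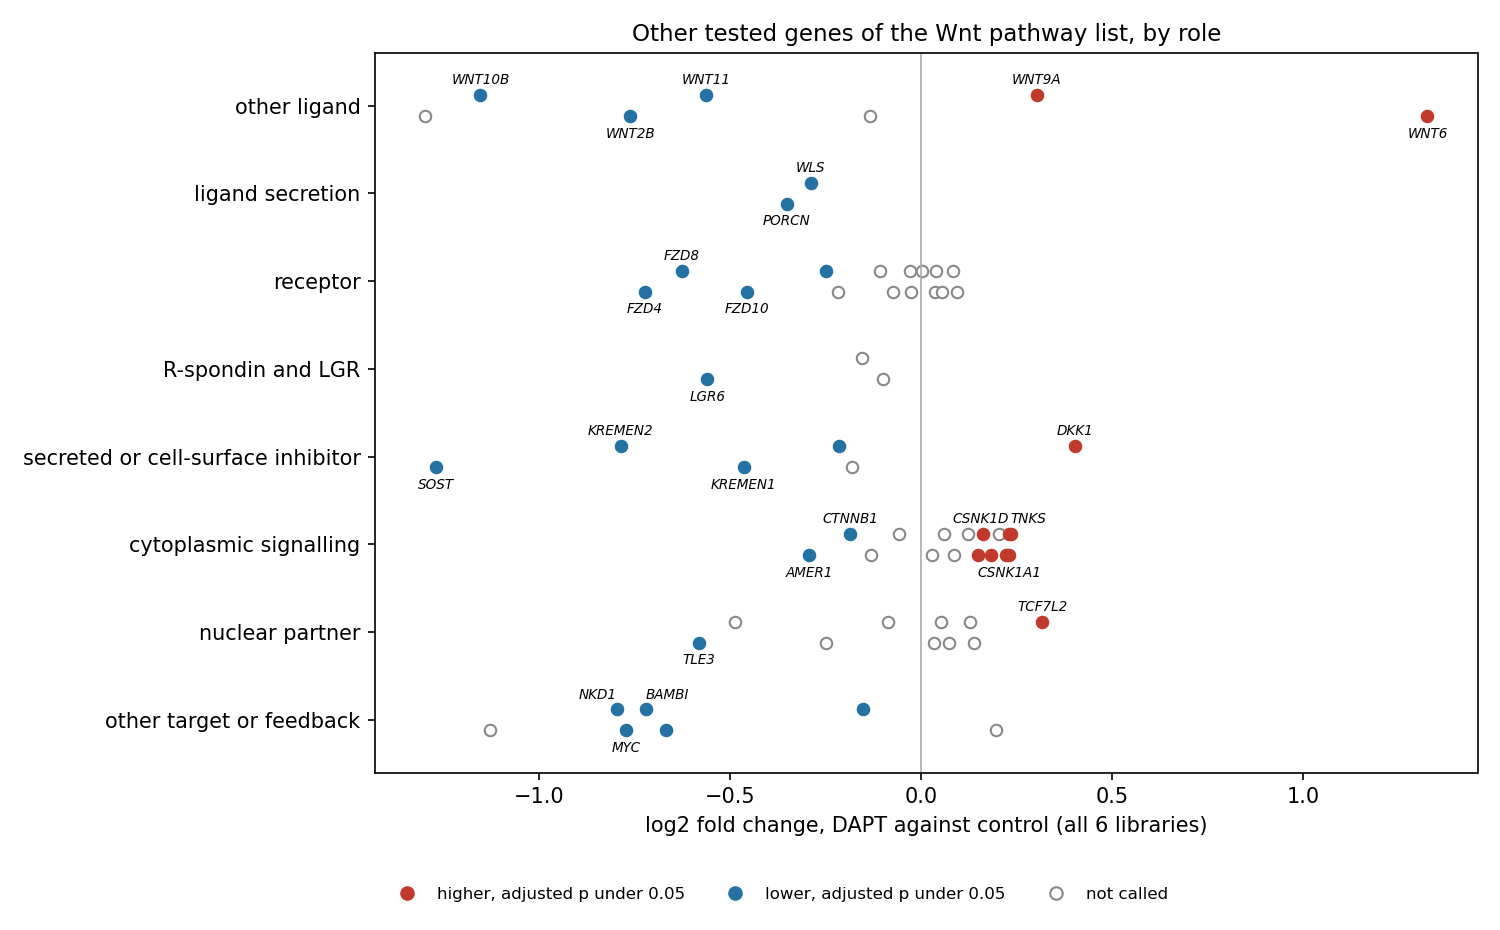
Log2 fold change of DAPT against control (x axis) for the 66 other tested pathway genes, grouped by role (y axis), with a point per gene and those past the adjusted p of 0.05 set apart by colour. Points past the threshold lie left of 0 for ligand secretion, receptors and other targets, and mostly right of 0 for the cytoplasmic genes.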

How the data were processed

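Total RNA of 3 control and 3 DAPT-treated HSC-4 samples was made into directional mRNA libraries, which were sequenced. The authors deposited, for each library, raw read counts per gene, made per the labels and methods with Trim Galore, HISAT2 on GRCh38 and, per the file headers, featureCounts 1.6.3 with strand option 1 and the Ensembl release 96 annotation. The kit was directional, and whether this strand option matches its read orientation was not checked here, so reads of genes on opposite strands may not be fully separated. Reads on several loci or several genes were not counted, which removes reads of shared exons. HTSeq and DESeq2 are also named in the submitters' processing notes.

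Gene symbols came from a gene name table (58472 of 58884 identifiers matched). Genes passing edgeR's filterByExpr (minimum count 10) were scaled by TMM and tested with the robust quasi-likelihood test in edgeR 4.0.16 (R 4.3.3), two-sided, with Benjamini-Hochberg adjustment over 15001 genes. Intervals are 95%. TPM was computed from counts and exonic lengths without TMM scaling and served to compare genes within a library or group. TPM values and shares of both groups are shown side by side, but changes with DAPT are given by the fit alone. The library totals of 12276313 to 16317672 reads limit genes under 3 counts, and this floor covers counting error only. Same-numbered libraries deviated together with correlations of 0.00 to 0.03 and were not treated as pairs. Alternatives were DESeq2 1.42.0, limma-voom (limma 3.58.1), other scalings and filters, no robust estimation, a replicate block and each library left out. The script was tested on simulated data. The named pathway genes were those called with the largest changes per role, up to 3 in each direction, at a mean of at least 1 CPM, and the ligands with at least 10 reads in any library. The genes and lists were chosen with earlier results of these data known.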

Additional observations from a re-analysis of the deposited data

How the results depend on the processing

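Every alternative was compared with the fit of all 6 libraries. In that fit 2574 genes were higher and 2707 lower, and with library size alone as the scaling 3445 were higher and 2156 lower, at a median log2 fold change of 0.06 in place of 0.01. Leaving out a library gave 4174 to 5618 changed genes, 1901 to 2726 higher and 2190 to 2892 lower, and 2 to 4 of the Wnt ligand, LEF/TCF and feedback genes, 1 to 3 of them higher. An adjusted p below 0.01 left 3338 of all 15001 tested genes (1516 higher). It left 2 of the 9 tested ligand, LEF/TCF and feedback genes (1 higher) and 20 of the 66 tested pathway genes (5 higher). A change of at least 2-fold left 356 genes (90 higher, 266 lower), or 2.37% of all tested genes. It left 3 of the 66 tested pathway genes (1 higher, 2 lower) and 0 of the 9 tested ligand, LEF/TCF and feedback genes in either direction. Without robust estimation 2 of the ligand, LEF/TCF and feedback genes were lower, since WNT5A was added at an adjusted p of 0.0202. The small change of LEF1 turned direction, to 0.029 with library size alone. Leaving out a library took WNT4 from -0.0063 (without control replicate 3) to 0.125 (without control replicate 2) and LEF1 from -0.082 (without DAPT replicate 3) to 0.075 (without DAPT replicate 2), with 0.0088 without control replicate 2, all on the log2 scale. The replicate number as a block gave 5295 genes, 4 of the ligand, LEF/TCF and feedback genes and 33 of the pathway genes. It moved no count by over 1.5 times, and same-numbered libraries deviated together with correlations of only 0.00 to 0.03. AXIN2 had too few reads to be tested, and the interval of LEF1 was wide. The causes of these shifts were not tested.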

Other observations

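Some ligand genes lie close together in the genome, a pattern looked for after the values were seen. WNT6 and WNT10A lie on chromosome 2 on the same strand, 6618 bases apart with 0 annotated genes between them. WNT6 had 7, 11 and 4 reads in the controls and 25, 18 and 13 with DAPT, and both genes of the pair were higher with DAPT. WNT10B had 78, 77 and 63 reads in the controls and 33, 27 and 38 with DAPT, and it was lower. WNT1 lies 6717 bases from WNT10B on the other strand, with 1 annotated gene between them. It had 1, 0 and 0 reads in the controls and 5, 0 and 0 with DAPT. WNT3 and WNT9B lie 46 bases apart on opposite strands, with WNT9B at 0 reads in all 6 libraries. WNT9A and WNT3A lie 59065 bases apart on opposite strands, with 2 annotated genes between them. WNT9A was at a log2 fold change of 0.30, and WNT3A had 0 to 4 reads per library. WNT16, which was not tested, had 26 reads in control replicate 1 and 2 to 5 in each of the others. The WNT5A, WNT5B and WNT16 reads were thus each highest in the library with the high fibroblast markers, and the part of those markers' source was not tested.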
